A study of Mus musculus with 6 samples.

Results

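The Ikaros family consists of 5 zinc finger transcription factors, Ikaros (Ikzf1), Helios (Ikzf2), Aiolos (Ikzf3), Eos (Ikzf4) and Pegasus (Ikzf5). Its 5 genes were taken by symbol from the 48397 genes of the count table, where each had 1 row, and all 5 were among the 12312 genes with enough reads to be tested. In stage 0 iNKT cells, the earliest thymic precursors of invariant natural killer T cells, Ikzf1, Ikzf3 and Ikzf2 were the abundant members, whereas Ikzf5 and Ikzf4 were rare and uneven between libraries. No member passed the test between BALB/c and SKG mice.

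The experiment used bulk RNA-Seq to ask whether weaker TCR signaling alters gene expression just after positive selection, and it compared 3 libraries from BALB/c mice with 3 from SKG mice. BALB/c mice carry wild-type Zap70, the kinase next to the TCR, while SKG mice are of the same strain with a hypomorphic missense allele of Zap70 in all their cells. All mice were 8 to 10 weeks old, and each library came from about 1000 cells sorted from the pooled thymi of 3 mice as PBS57-CD1d tetramer+, CD24+, CD69+, CD44-, CD4lo/- and CD8-, so that a replicate was a pool. The titles of the mutant samples spell the genotype SGK, and the genotype label SKG was used.

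Ikaros factors bind DNA through zinc fingers in the N-terminal part of the protein and pair with one another through fingers at the C-terminal end. They recruit chromatin remodeling complexes, above all NuRD, and can lower or raise the expression of their targets. In the thymus Ikaros and Aiolos are known to set thresholds of TCR responses, Helios is induced in thymocytes that receive strong TCR signals and is kept in regulatory T cells, and Eos works with Foxp3 in regulatory T cells.

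The second N-terminal zinc finger, which contributes to recognition of the GGGAA core, shows how alike 4 of the members are, and is therefore printed from the GENCODE M21 transcripts of each gene. Capitals mark the codons of the 2 cysteines and the 2 histidines that hold the zinc ion, and all sequences run 5′ to 3′ on the strand of the gene in GRCm38.
Ikzf1 finger 2, chr11:11754024-11754086, plus strand: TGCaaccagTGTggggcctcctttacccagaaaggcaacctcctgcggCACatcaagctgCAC
Ikzf2 finger 2, chr1:69570581-69570643, minus strand: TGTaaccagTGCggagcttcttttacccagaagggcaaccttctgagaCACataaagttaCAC
Ikzf3 finger 2, chr11:98488940-98489002, minus strand: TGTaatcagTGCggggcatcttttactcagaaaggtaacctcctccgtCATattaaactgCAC
Ikzf4 finger 2, chr10:128640229-128640291, minus strand: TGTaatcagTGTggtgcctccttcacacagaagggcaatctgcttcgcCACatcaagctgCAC
Ikzf5 finger 2, chr7:131392501-131392563, minus strand: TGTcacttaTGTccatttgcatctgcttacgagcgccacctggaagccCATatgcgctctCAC

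Each of these stretches lies within 1 coding exon and has 63 bases. In Ikzf1, Ikzf2, Ikzf3 and Ikzf4 the 21 codons encode the same 21 residues, although only 48 to 53 of the 63 bases are identical between any pair of them. Finger 2 of Ikzf5 shares 5 of 21 residues and 26 to 30 of 63 bases with these fingers. Fingers are numbered from the N-terminal end, and since Ikzf5 has 5 fingers and Ikzf1 6, equal numbers need not correspond. Its finger 2 shares 9 of 21 residues with finger 3 of Ikzf1 and of Ikzf3. Despite this likeness, no stretch of 50 bases, the length of the reads, occurred in the transcripts of more than 1 member, so reads of one member had no exact copy in another. In other genes, 97 of 11844 such stretches of Ikzf2 and 33 of 6229 of Ikzf4 recurred, and 0 of Ikzf1 and Ikzf3. For Ikzf5, 4734 of 5818 recurred, on either strand, in Pstk, Gm44624 or Gm10356.

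The genes lie on separate chromosomes or far apart in GRCm38. Ikzf1 (ENSMUSG00000018654) is at chr11:11685003-11772926 on the plus strand, and Ikzf3 (ENSMUSG00000018168) is at chr11:98464902-98546031 on the minus strand. Their exons share no base with another annotated gene. Ikzf2 (ENSMUSG00000025997), at chr1:69531214-69687245 on the minus strand, shares 144 of 11613 exon bases (1.24%) with the antisense gene Gm29114, and Ikzf4 (ENSMUSG00000002578), at chr10:128630843-128645991 on the minus strand, shares 37 of 5995 (0.617%) with the noncoding gene Gm26876. Ikzf5 (ENSMUSG00000040167), at chr7:131388652-131410521 on the minus strand, is the exception, since 4835 of its 5721 exon bases (84.5%) overlap other genes, 4652 of them on the opposite strand in Pstk, which encodes a kinase of selenocysteine tRNA. Counting took no account of strand, and how reads in the shared bases were assigned is not given in the sources used here. The values of Ikzf5 below may therefore hold reads of Pstk or lack reads of its own.

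The libraries held 37176544 to 43115544 reads on genes, and 10835 to 14791 genes had at least 10 reads. Zap70 had 16887 to 20537 raw reads in BALB/c and 12983 to 14773 in SKG. The lowest BALB/c count was in replicate 3, the library with the most reads on genes. The highest SKG count was in replicate 3, the library with the fewest. These ranges are not scaled to library size, so they do not compare the genotypes. Counts per gene cannot show the missense allele. Summed markers of the sorted cells (Cd24a, Cd69, Egr2, Trav11, Trav11d, Cd3e, Trbc1 and Trbc2) were at 4826 to 6475 CPM in BALB/c and 4364 to 5192 CPM in SKG, where CPM is the count of a gene per 1000000 reads of the library after TMM scaling, and the genotypes overlapped. Libraries of 1 genotype differed widely for many genes, with 3744 of 12312 tested genes (30.4%) spanning over 10-fold within BALB/c or within SKG.

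To set the members against each other, CPM was divided by the length of all annotated exons of the gene in kilobases (CPM per kb). Ikzf1 led with a mean of 57.1 CPM per kb ± 13.3 (SD, n = 6 libraries) and a range of 35.6 to 75.04. Ikzf3 followed at 24.0 ± 8.01 CPM per kb (SD, n = 6) and Ikzf2 at 19.9 ± 3.74 CPM per kb (SD, n = 6). The rare members were Ikzf5 at 0.495 ± 0.353 CPM per kb (SD, n = 6) and Ikzf4 at 0.446 ± 0.625 CPM per kb (SD, n = 6). Ikzf1 was above Ikzf3 in 6 of 6 libraries, by 1.87 to 3.21 times, or by 1.10 to 1.89 times with the longest transcript as length. Per kb of all exons, Ikzf3 and Ikzf2 did not differ beyond their spread, Ikzf3 being the higher in 5 of 6 libraries with ratios of 0.931 to 1.59 and the lower in SKG replicate 3. That depended on the length, as Ikzf3 was 1.41 to 2.42 times as high as Ikzf2, and the higher in 6 of 6 libraries, per kb of the longest transcript. The largest step of the order per kb of all exons was between Ikzf2 and Ikzf5, with 18.4 times as much Ikzf2 in the library where they were closest. Divided by the 886 exon bases that Ikzf5 shares with no other gene, the same reads gave it 3.20 ± 2.28 CPM per kb (SD, n = 6), and the smallest ratio was 2.85. Ikzf5 and Ikzf4 could not be ordered per kb of all exons, since Ikzf5 was the higher in 4 of 6 libraries. Both steps depended on the length, as the Ikzf5 mean of 3.20 CPM per kb of unshared bases stood beside 0.446 for Ikzf4.

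Within each library, Ikzf1 contributed 51.4% to 61.8% of the length-scaled reads of the family. The share of Ikzf2 was 21.3%, 20.5% and 20.5% in replicates 1 to 3 of BALB/c and 16.7%, 17.7% and 21.6% in replicates 1 to 3 of SKG. For Ikzf3 the shares were 22.4%, 23.7% and 27.3% in BALB/c and 19.3%, 28.2% and 20.1% in SKG. Ikzf1 thus held the largest share in each of the 6 libraries, and the shares of Ikzf2 and Ikzf3 overlapped between the genotypes. These shares are per kb of all exons and depend on that length. Without length scaling, Ikzf1 held 38.2% to 48.7% of the reads of the family.

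**Figure D1:**
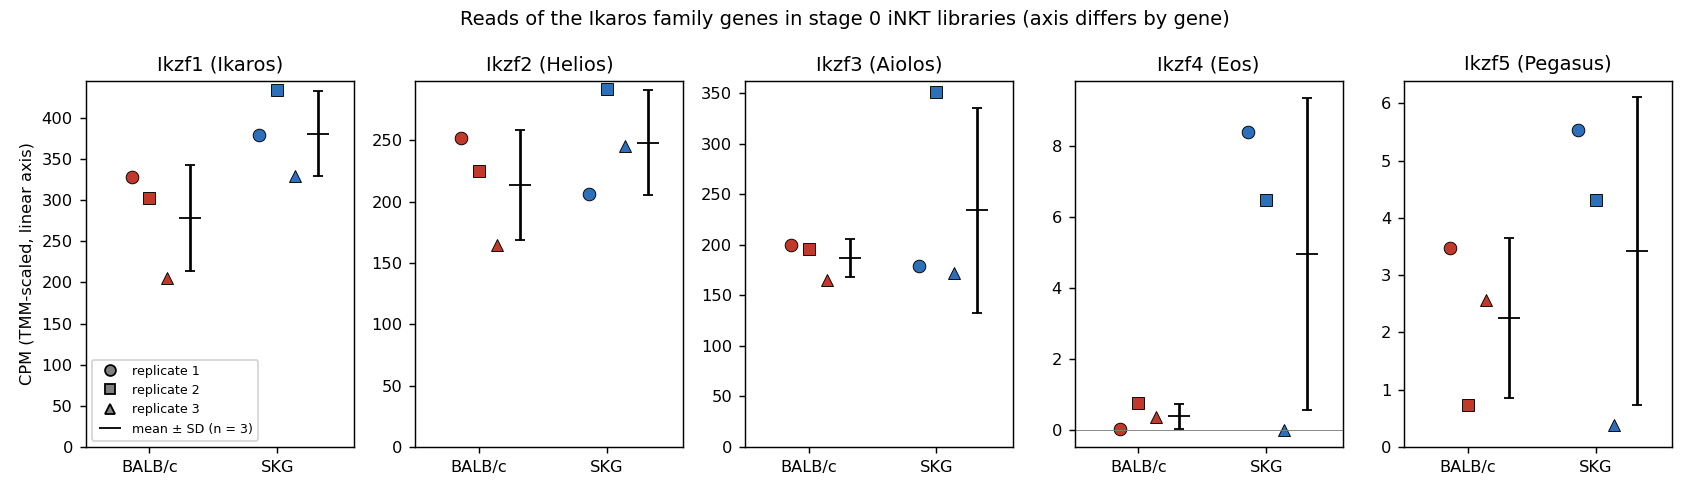
CPM of each Ikaros family gene after TMM scaling (y axis, linear, with its own scale for each gene) in the 3 BALB/c (red) and 3 SKG (blue) libraries, with symbols for the replicate number and the mean ± SD (n = 3) beside each group. The SKG points of Ikzf1 begin at 330.0 CPM, where the BALB/c points end at 328, the points of the other 4 genes overlap, and 1 SKG library of Ikzf4 is at 0.

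Ikzf1 encodes Ikaros, the founding member, which restrains the response of thymocytes to TCR signals. It had 13540, 11209 and 9277 reads in replicates 1 to 3 of BALB/c and 15281, 16850 and 11934 in replicates 1 to 3 of SKG. Scaled to the libraries, these were 328, 302 and 205 CPM in BALB/c and 379, 434 and 330.0 CPM in SKG. Every SKG library was above every BALB/c library, but by a margin of less than 2 CPM between BALB/c replicate 1 and SKG replicate 3, and without TMM scaling these libraries were at 326 and 321 CPM and the genotypes overlapped. The means were 279 ± 64.7 CPM (SD, n = 3) in BALB/c and 381 ± 51.8 CPM (SD, n = 3) in SKG. Between them Ikzf1 had a log2 fold change of 0.45 (SKG over BALB/c, with a standard error, SE, of 0.22, 95% interval -0.07 to 0.97), with an adjusted p of 0.952 and an unadjusted p of 0.0783 in edgeR's quasi-likelihood test. In folds, the interval reached from 0.954 to 1.96. In bulk samples such as these, fewer cells with a gene's RNA and less of that RNA per cell cannot be told apart.

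Ikzf2 encodes Helios. Its reads numbered 10395, 8333 and 7419 in BALB/c against 8319, 11346 and 8866 in SKG. In CPM these were 252, 225 and 164 for BALB/c and 206, 292 and 245 for SKG. The genotypes overlapped, with the lowest library in BALB/c and the highest in SKG. From 214 ± 44.9 CPM (SD, n = 3) in BALB/c to 248 ± 42.8 CPM (SD, n = 3) in SKG, the log2 fold change of Ikzf2 was 0.21 (SE 0.22, 95% interval -0.31 to 0.74, edgeR adjusted p = 0.991). A change of Helios by more than 1.67-fold upward or to less than 0.805-fold in SKG lay outside this interval.

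Ikzf3 encodes Aiolos, a close relative that pairs with Ikaros in lymphocytes, is prominent in B cells and rises as thymocytes mature. Its read counts were 8245, 7262 and 7472 for BALB/c and 7215, 13641 and 6219 for SKG. In CPM it was even among the BALB/c libraries at 199.9, 196 and 165, whereas in SKG replicate 2 stood at 351 beside 179 and 172 in replicates 1 and 3. That library decided the direction, as leaving it out turned the log2 fold change of Ikzf3 from 0.32 (SE 0.30, 95% interval -0.41 to 1.05) to -0.081. With all libraries the means were 187 ± 18.8 CPM (SD, n = 3) in BALB/c and 234 ± 101 CPM (SD, n = 3) in SKG, and the adjusted p was 0.991 in edgeR.

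The reads of Helios and Aiolos can also be set against those of Ikaros in the same library, which removes the scaling between libraries. There were 0.768, 0.743 and 0.800 Ikzf2 reads per Ikzf1 read in BALB/c and 0.544, 0.673 and 0.743 in SKG. The lowest BALB/c ratio and the highest SKG ratio met at 0.743, so the groups lay side by side with no gap. The ratio of Ikzf3 to Ikzf1 was 0.609, 0.648 and 0.805 in BALB/c and 0.472, 0.810 and 0.521 in SKG, and the genotypes overlapped over most of this range. These ratios were not tested, since they restate the counts of the same libraries.

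**Figure D2:**
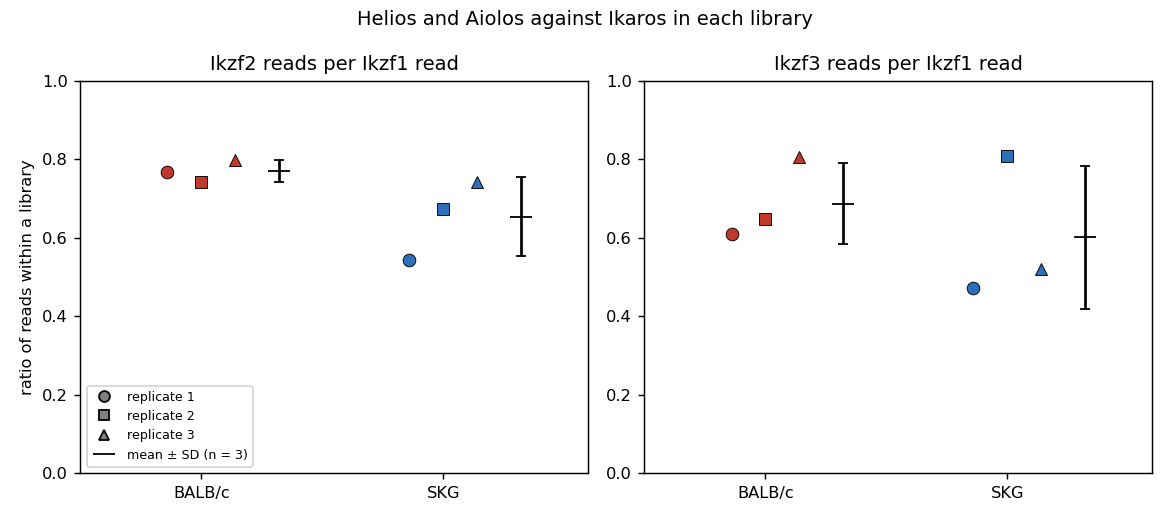
Reads of Ikzf2 (left) and Ikzf3 (right) per read of Ikzf1 in the same library (y axis, a ratio from 0) for the BALB/c (red) and SKG (blue) libraries, with the mean ± SD (n = 3). The Ikzf2 ratios end at 0.743 in SKG where those of BALB/c begin, and for Ikzf3 the highest ratio of each genotype is close to 0.81.

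Ikzf4 encodes Eos, a corepressor partner of Foxp3. It was rare in BALB/c, with 2, 28 and 17 reads in the replicates 1 to 3, and uneven in SKG, with 338, 252 and 0. On the CPM scale these were 0.0485, 0.755 and 0.376 in BALB/c and 8.39, 6.48 and 0 in SKG. A pair of SKG libraries was thus above all BALB/c libraries, while in SKG replicate 3 the 0 of 37176544 reads allows up to 0.0830 CPM by counting error alone, a bound above the value of BALB/c replicate 1. The means were 0.393 ± 0.353 CPM (SD, n = 3) in BALB/c and 4.96 ± 4.40 CPM (SD, n = 3) in SKG, and the log2 fold change of Ikzf4 was 3.65 (SE 2.20, edgeR adjusted p = 0.972). Its 95% interval ran from -1.62 to 8.91, so these data fixed neither the direction nor the size of a change in Eos.

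Regulatory T cells express Eos and Helios, and 5 other markers of theirs were measured, Foxp3, Il2ra, Ctla4, Tnfrsf18 and Nrp1. Foxp3, their defining factor, had 20 reads in SKG replicate 1, the library with the most Ikzf4, and 0 in the other 5 libraries. The summed level of the 5 markers was 31.96, 16.4 and 36.9 CPM in BALB/c and 27.8, 44.1 and 96.1 CPM in SKG, the highest in SKG replicate 3, which had no Ikzf4 read but 1254 of Il2ra and 492 of Ctla4. The part of such cells in the Ikzf4 values was not tested. With Ikzf2 and Ikzf4 included, the sums of 202 to 284 CPM in BALB/c and 243 to 342 CPM in SKG were mostly Ikzf2. SKG replicate 1 with the most Ikzf4 reads also had the most genes with at least 10 reads, 14791, and SKG replicate 3 with no Ikzf4 read had the fewest, 10835. BALB/c replicate 3 had 17 Ikzf4 reads and 14339 such genes. With the number of detected genes as a covariate, added after the values were seen, the log2 fold change of Ikzf4 was 3.01 (edgeR adjusted p = 0.893). The part of that number in the Ikzf4 values was not tested.

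Ikzf5 encodes Pegasus, the most distant member, which prefers another DNA sequence than the other factors. Its read counts were 143, 27 and 116 for BALB/c and 223, 168 and 14 for SKG. In CPM these were 3.47, 0.728 and 2.57 in BALB/c and 5.53, 4.32 and 0.387 in SKG, and the highest and the lowest library were both SKG. Means of 2.25 ± 1.396 CPM (SD, n = 3) in BALB/c and 3.41 ± 2.69 CPM (SD, n = 3) in SKG gave a log2 fold change of 0.60 (SE 1.24, 95% interval -2.36 to 3.56, edgeR adjusted p = 0.991). Pstk, which overlaps it, had 922, 544 and 1130 reads in BALB/c against 567, 260 and 267 in SKG, and its part in the Ikzf5 counts was not tested.

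**Figure D3:**
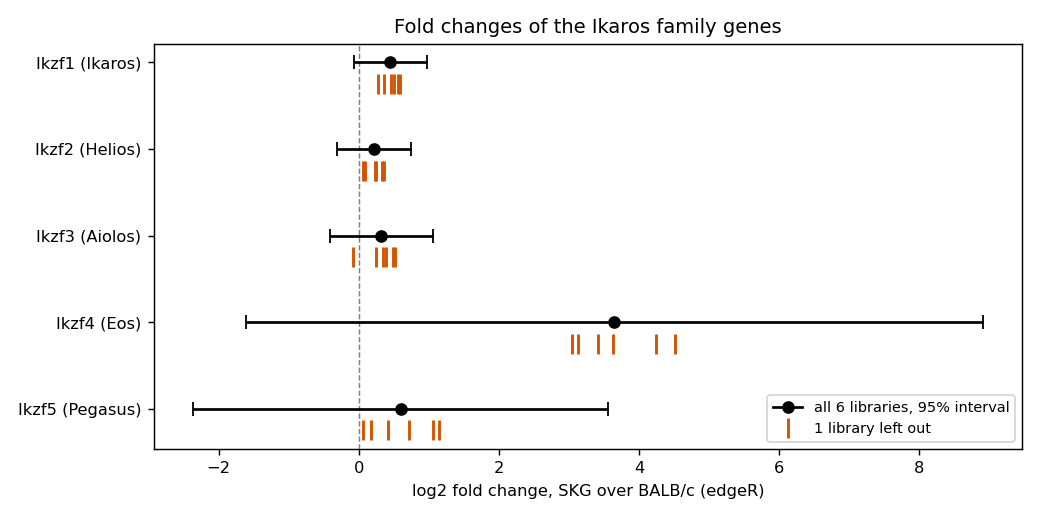
Log2 fold change, SKG over BALB/c, of each Ikaros family gene from edgeR (x axis), with the 95% interval of the fit to 6 libraries as a black line and the estimates with 1 library left out as orange ticks. All 5 intervals include 0, those of Ikzf4 (-1.62 to 8.91) and Ikzf5 (-2.36 to 3.56) are the widest, and the tick of Ikzf3 without SKG replicate 2 lies at -0.081.

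Across the family, edgeR called 0 of 5 members with the thresholds of the study, a fold change of 1.5 or more and an FDR below 0.1, and 0 of 5 had an unadjusted p under 0.05. Over all genes the same thresholds called 0% and 5.45% of 12312. Both DESeq2 fits also called 0 of 5 members, where they called 2.58% of 14342 genes without shrinkage and 1.67% of 13862 genes with shrunken fold changes, and limma-voom called 0 of 5 members and 0 of 12312 genes. After TMM scaling the libraries of the genotypes were apart for 1 member, Ikzf1, with SKG higher. By library size alone the libraries of Ikzf1 overlapped. With TMM scaling, 6.77% of tested genes were apart with SKG higher and 7.12% with BALB/c higher. The estimate was above 0 for 5 of 5 members, as it was for 6030 of 12312 genes, and the median log2 fold change was 0.45 in the family and -0.02 over all genes. The sign turned for Ikzf3 without SKG replicate 2 (-0.081) and for Ikzf5 with a replicate block from the library numbers (-0.29).

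Precision separated the members more than genotype did. Within a genotype, Ikzf1, Ikzf2 and Ikzf3 varied by 1.21 to 2.04 times between the highest and the lowest library. Ikzf5 varied by 4.76 times in BALB/c and 14.3 times in SKG, and Ikzf4 ranged from 2 to 28 reads in BALB/c and from 0 to 338 in SKG. The coefficient of variation that edgeR fitted between libraries of a genotype was 21.9% for Ikzf1, 22.4% for Ikzf2, 28.6% for Ikzf3, 116% for Ikzf5 and 165% for Ikzf4, beside a common value of 91.8% for all genes. By the SD of log2 CPM within genotypes, 17.0% of tested genes varied less than Ikzf1, 16.6% less than Ikzf2 and 32.3% less than Ikzf3, but 73.1% varied less than Ikzf5 and 91.3% less than Ikzf4. The members also differed in level. A lower mean CPM was found for 95.8%, 92.8% and 91.6% of tested genes beside Ikzf1, Ikzf2 and Ikzf3, but for 17.5% beside Ikzf5 and 16.9% beside Ikzf4. The part of the level in the variation was not tested.

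Several members are expressed by other cells of the thymus, whose markers were measured in the same libraries. Aiolos is also abundant in B cells. The summed level of 8 B cell genes was 1.89 to 6.86 CPM in BALB/c and 3.16 to 8.38 CPM in SKG. Cd22 was at 0 in all libraries, while Cd79a had 0 to 274 reads and Cd79b 0 to 303. SKG replicate 2, the library with the highest Ikzf3, was at 3.16 CPM of these B cell genes, the lowest of the SKG libraries. The part of B cells in the Ikzf3 values was not tested. Of 9 genes of double-positive thymocytes, the sum was 72.5 to 467 CPM in BALB/c and 107 to 244 CPM in SKG. For 7 genes of mature iNKT cells the sum was 903 to 1115 CPM in BALB/c and 792 to 1001 CPM in SKG. Tbx21 was at 0 in all libraries. For 6 myeloid genes the sum was 99.0 to 228 CPM in BALB/c and 75.2 to 277 CPM in SKG. Csf1r had 0 to 3 reads in each library, while Cst3 had 2786 to 6723 and Lyz2 5 to 3873. For 6 erythroid genes the sum was 0.0270 to 69.7 CPM in BALB/c and 0.0515 to 0.691 CPM in SKG. Alas2 was at 0, while Hbb-bs had 1428 reads in BALB/c replicate 1 and 0 to 22 in the other libraries. The mature iNKT sums were mostly Gata3, Il2rb and Zbtb16, with 4 to 536 reads of Cd44 and 0 to 175 of Klrb1c in each library. The genotypes overlapped in each of these lists.

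Ikaros proteins act through corepressor complexes, and 19 genes of NuRD, Sin3, CtBP and the remodeler Smarca4 were all tested. None was called by edgeR, 2 had an unadjusted p under 0.05 with SKG higher, and 14 of 19 estimates were above 0 with a median log2 fold change of 0.25, or 17 of 19 with a median of 0.13 without BALB/c replicate 1. Over all 12312 tested genes, 378 had such a p with SKG higher, and 6030 estimates were above 0. Ctbp1, a corepressor that Ikaros binds directly, was at 239 ± 51.6 CPM (SD, n = 3) in BALB/c and 431 ± 18.8 CPM (SD, n = 3) in SKG, with a log2 fold change of 0.85 (SE 0.19, edgeR adjusted p = 0.619). Smarca4, the ATPase of the BAF remodeler, was at 194 ± 28.0 and 303 ± 21.3 CPM (SD, n = 3 each), with a log2 fold change of 0.64 (SE 0.16, edgeR adjusted p = 0.686). For both, and for the NuRD subunit Gatad2a with a log2 fold change of 0.37 and an adjusted p of 0.952 from edgeR, every SKG library was above every BALB/c library. That held for 6.77% of all tested genes. Chd4, the ATPase of NuRD, was at 297 ± 68.8 and 311 ± 13.1 CPM (SD, n = 3 each), with a log2 fold change of 0.07 and an adjusted p of 0.991 from edgeR. Ctbp1 was called by DESeq2 with and without shrinkage (adjusted p = 0.053 and 0.0418), and Smarca4 without shrinkage only (adjusted p = 0.0805).

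Of 17 known target genes of Ikaros factors, 8 had enough reads to be tested, and Hes1, Dtx1, Ptcra, Notch3, Rag2, Il2, Il10, Ifng and Tbx21 had not. None of the 8 was called by edgeR, 1 estimate was above 0, and the median log2 fold change was -0.61. This direction rested on BALB/c replicate 1, without which, in a fit added after the values were seen, 5 of 8 estimates were above 0 and the median was 0.50. Of the 8, Cd8a, Cd8b1, Dntt and Rag1 also mark double-positive thymocytes, whose summed markers were highest in that library at 467 CPM, beside 72.5 and 189 CPM in the other BALB/c libraries, and the part of such cells was not tested. Myc, a driver of cell growth that Ikaros represses in other lymphocytes, was the target with the lowest p, at 393 ± 28.4 CPM (SD, n = 3) in BALB/c and 146 ± 26.1 CPM (SD, n = 3) in SKG. Its log2 fold change was -1.43 (SE 0.18, edgeR adjusted p = 0.328), and its BALB/c libraries were all above those of SKG. DESeq2 called it without and with shrinkage (adjusted p = 1.2e-06 and 1.07e-06). Because the study picked Myc on these samples, it is not independent evidence of a direction. Bcl2, a survival gene, was at 634 ± 150.1 and 382 ± 141 CPM (SD, n = 3 each, edgeR adjusted p = 0.947), and the CD8 chain gene Cd8b1, which lies in a locus that Ikaros binds, was at 54.3 ± 57.5 and 28.5 ± 13.4 CPM (SD, n = 3 each, edgeR adjusted p = 0.991). The libraries of both genes overlapped. Of the untested targets, Dtx1, a gene of the Notch pathway, had 0 reads in each BALB/c library against 238, 583 and 0 in SKG, and the receptor gene Notch3 had 6, 0 and 1 reads in BALB/c against 8, 33 and 675 in SKG. DESeq2 without shrinkage called both (adjusted p = 0.0313 for Dtx1 and 0.0237 for Notch3), on the reads of 2 SKG libraries for Dtx1 and mainly of SKG replicate 3 for Notch3.

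Helios accompanies strong TCR signals in thymocytes, and 14 other genes of such signals were all tested. EdgeR called 0 of them, 4 had an unadjusted p under 0.05 with BALB/c higher, and 7 of 14 estimates were above 0 with a median log2 fold change of -0.11. Over all 12312 tested genes, 293 had such a p with BALB/c higher. The costimulatory receptor gene Tnfrsf9 (4-1BB) was at 171 ± 33.8 CPM (SD, n = 3) in BALB/c and 65.0 ± 6.82 CPM (SD, n = 3) in SKG, with a log2 fold change of -1.39 (SE 0.22, edgeR adjusted p = 0.617). For Tnfrsf4 (OX40) 151, 216 and 73 reads were counted in BALB/c against 1, 2 and 2 in SKG (edgeR adjusted p = 0.617). The activation marker Cd69, a marker of the sort gate, was at 353 ± 39.9 and 193 ± 50.4 CPM (SD, n = 3 each, edgeR adjusted p = 0.686). For these 3 genes and for Egr2 all BALB/c libraries were above all SKG libraries, as for 7.12% of all tested genes. The study had picked Egr2 and Tnfrsf4 on these samples. DESeq2 with and without shrinkage called Tnfrsf9 and Tnfrsf4. Without BALB/c replicate 1, 9 of 14 estimates were above 0 and the median was 0.13. The difference between Helios, whose estimate was above 0, and these genes was not tested.

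The last list held 13 enzymes known to modify or degrade Ikaros proteins, among them casein kinase 2 and protein phosphatase 1, which add and remove phosphates, and the cereblon ubiquitin ligase. All 13 were tested, edgeR called 0, 0 had an unadjusted p under 0.05, 3 estimates were above 0, and the median log2 fold change was -0.11. The lowest p in this list was that of Rbx1, the RING subunit of the ligase, at 117 ± 7.80 and 90.8 ± 18.1 CPM (SD, n = 3 each, edgeR adjusted p = 0.972). Ppp1cb, a catalytic subunit of protein phosphatase 1, was at 204 ± 35.0 and 161 ± 42.4 CPM, and Cul4a, the scaffold of the ligase, at 105 ± 17.5 and 137 ± 62.5 CPM (SD, n = 3 each, edgeR adjusted p = 0.988 and 0.991). The libraries of the genotypes overlapped for all 13 enzymes, and DESeq2 called 0 of them as well.

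**Figure D4:**
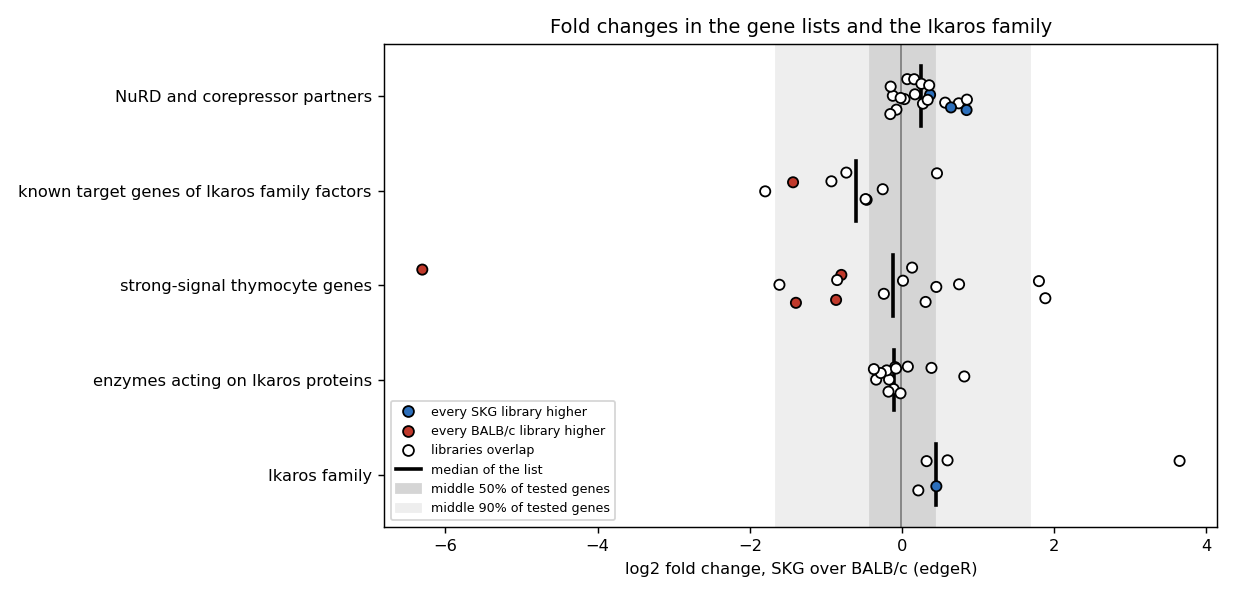
Log2 fold change, SKG over BALB/c, from edgeR (x axis) of the tested genes of the 4 gene lists and of the Ikaros family, with the median of each list as a black bar, filled points for genes whose libraries do not overlap (blue with SKG higher, red with BALB/c higher) and gray bands for the central ranges of all tested genes, the wider one from -1.66 to 1.68. The corepressor genes lie around a median of 0.25 with 3 blue points, the strong-signal genes around -0.11 with 4 red points, and Ikzf4 lies at 3.65, outside the wider band.

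For each member, the genes nearest in pattern were those with the smallest root mean square difference of log2 CPM, centred on the mean of the gene, over the 6 libraries. Among the nearest genes were H1f0, a linker histone (0.0557), and Plekha1 (0.109) for Ikzf1, and Fam234b (0.0791), Elk4, an ETS factor (0.0859), and Plekha1 (0.0930) for Ikzf2. For Ikzf3 they were Gabpb2, a subunit of the GABP factor (0.0579), Arid2, a subunit of a chromatin remodeler (0.119), and Neu1, a lysosomal sialidase (0.123). The rare members had no gene as near, the smallest differences being 0.527 for Ikzf4 (Wfikkn1, then Sema6b at 0.625 and Gm42611 at 0.740) and 0.347 for Ikzf5 (R3hcc1l, then Tmppe at 0.399 and Plagl2 at 0.423). With 6 libraries and 12312 genes to choose from, these are descriptions of likeness alone.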

How the data were processed

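The libraries were compared as 3 BALB/c against 3 SKG replicates, by the genotype label. The authors aligned reads of 50 nt with HISAT2 2.1.0 to GRCm38 and counted them on exons with featureCounts (Subread 1.4.4) and Ensembl annotation, without strand, keeping alignments with a mapping quality of 10 or more. The deposited table holds raw counts, whole numbers with no normalization. A second deposited table holds the authors' DESeq2 comparison (means, fold changes, standard errors, Wald statistics and p-values) and was not used. The labels and the methods name different amplification kits, and copies made by amplification cannot be told from separate molecules, so a floor of 3 counts covers counting error only.

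Counts were fitted with edgeR 4.0.16 under R 4.3.3 (filterByExpr, TMM, quasi-likelihood F test, Benjamini-Hochberg adjustment over 12312 genes), and a gene was called where its FDR was below 0.1 and its fold change 1.5 or more. Standard errors (SE) were obtained by dividing the absolute log2 fold change by the square root of F, and intervals are at 95%. Log2 CPM used a prior count of 2. Alternatives were DESeq2 1.42.0 with and without shrinkage, limma-voom (limma 3.58.1), relative log expression factors, library size alone, no filter, a filter of 5 CPM in 3 libraries, a replicate block, each library left out, the longest transcript as length and, added later, the number of detected genes as a covariate, the order of levels without each library, Ikzf5 per unshared exon base and the list medians without BALB/c replicate 1. The edgeR fit alone was also run on simulated counts. These varied less than the data, whose common coefficient of variation was 91.8%, so they do not show how the fit performs here. Residuals of libraries with the same title number correlated at -0.0920, -0.00962 and -0.145, and those with the same library number at -0.0384 and 0.00289, so the numbers were not taken as pairs.

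Genes named are the 5 members, the 3 genes of lowest p in each list, genes called by an alternative, and the 3 nearest in pattern, except that some genes these rules select are not reported here. Chd4 and Egr2 were added after their values were seen. The members, lists and tests were chosen with earlier results of these data known. Positions, lengths and sequences are those of GENCODE M21 on GRCm38, a later annotation than the one used for counting, read with Python 3.11.15.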

Additional observations from a re-analysis of the deposited data

How the results depend on the processing

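No member was called under any alternative. Ikzf1 and Ikzf2 kept an estimate above 0 in 16 of 16 alternatives and Ikzf4 in 15 of 15. Ikzf3 did in 15 of 16, and turned to -0.081 without SKG replicate 2. Ikzf5 did in 14 of 15, and turned to -0.29 with the replicate block from the library numbers. Without single libraries the log2 fold change ranged from 0.28 to 0.59 for Ikzf1, 0.06 to 0.36 for Ikzf2, -0.081 to 0.52 for Ikzf3, 3.05 to 4.52 for Ikzf4 and 0.07 to 1.1405 for Ikzf5. Lower limits came without BALB/c replicate 3 for Ikzf1 and Ikzf2 and without SKG replicate 1 for Ikzf4 and Ikzf5. With the replicate block from the title numbers the values were 0.47, 0.22, 0.24, 2.84 and 0.31 for Ikzf1 to Ikzf5, and with that from the library numbers 0.26, 0.17, 0.31 and 0.64 for Ikzf1 to Ikzf4. Both blocks called 0 genes. Ikzf4 fell to 1.86 in limma-voom and 1.19 in DESeq2 with shrinkage. Ikzf4 and Ikzf5 had too few reads for the stricter filter.

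Over all genes, 0 were called by edgeR, 370 by DESeq2 without and 231 with shrinkage, 2 without a filter and 1 with the stricter filter, and 0 without each library in turn. Of the 4 lists, DESeq2 called 7 genes without and 4 with shrinkage, where edgeR called 0, also without each library. The cause was not tested. In the order of levels 4 neighbouring pairs were compared, and 3 remained without BALB/c replicate 1 or replicate 3, since Ikzf4 was then above Ikzf5 per kb of all exons. The order ranged from 3 to 4 pairs kept over all libraries left out, and the longest transcript as length kept 4, as did Ikzf5 per unshared exon base, added later. Without BALB/c replicate 1 the median of the target list turned from -0.61 to 0.50 and that of the strong-signal list from -0.11 to 0.13, while that of the corepressor list moved from 0.25 to 0.13 and that of the enzyme list from -0.11 to -0.04. The median log2 fold change of all genes lay between -0.06 and 0.09 in edgeR and was 0.12 over the 25935 genes of DESeq2 without shrinkage. With 3 pools a group, changes in Ikzf4 and Ikzf5 were not detectable unless very large.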
